A study of Mus musculus with 2 samples.

Results

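Axon guidance ligands and receptors were examined in RNA from mouse nephron progenitor cells with and without p53. These are the ephrins and Eph receptors, the semaphorins with their plexin and neuropilin receptors, the Slits with their Robo receptors, and the netrins with Dcc and the Unc5 receptors. They were chosen by gene symbol among the protein-coding genes of the deposited table, and 53 of its 10617 distinct genes belong to them. In the GENCODE vM21 annotation 71 protein-coding symbols fit the same pattern, among them Unc50, which shares only the first letters of its name with the netrin receptors. The other 18, such as Epha4, Ephb2, Plxna2, Slit3 and Unc5d, were not analysed here. By family the table held 9 of 14 Eph receptors, 7 of 8 ephrins, all 7 class 3 semaphorins, 10 of 13 semaphorins of classes 4 to 7, 6 of 9 plexins, both neuropilins, 1 of 3 Slits, all 4 Robo receptors and 3 of 4 netrins. It also held 4 of 6 genes grouped by symbol as netrin receptors. That group rests on the names alone, so not each of the 6 need be a netrin receptor.

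The cells were Six2-positive cap mesenchyme sorted from kidneys at embryonic day 15.5, in embryos of a mixed CD1 and C57BL background. Both groups carried the Six2CreGFP transgene, in which Six2 regulatory sequence drives Cre recombinase together with the fluorescent protein used for sorting. The wild-type group (WT) had the genotype Six2CreGFP+;p53+/+ and the knockout group (KO) Six2CreGFP+;p53f/f, whose floxed alleles are deleted where Cre is active. There was 1 library per group, the labels do not say how many embryos each held, and no difference below has a replicate check.

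Guidance cues are secreted or membrane-bound proteins that attract or repel migrating cells and growth cones, and most of them also act outside the nervous system on cell sorting, branching and vessels. Ephrins and Eph receptors signal in both directions between touching cells. Semaphorins signal through plexins, the secreted class 3 proteins mostly with a neuropilin as co-receptor, while Slits act through Robo receptors and netrins through Dcc, neogenin and the Unc5 proteins. In the developing kidney, Slit2 and Robo2 are known for limiting the region in which Gdnf, the growth factor that calls out the ureteric bud, is made, and semaphorin and plexin genes have roles in bud branching and glomerular vessels.

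All values are read densities in RPKM, reads corrected for the length of the gene and the depth of the library, so levels can be compared between genes. The difference between libraries is KO minus WT on log2(density + 1), which understates the change of genes at low density. A difference of 1.5-fold on that scale was the size rule, and a mean density of 7.30 RPKM, the median of all listed genes, was taken as the floor for well-measured genes. The densities correspond to about 91200000 reads in WT and 85600000 in KO. Trp53, the deleted gene, was at 33.9 in WT and 5.38 RPKM in KO, a density over the whole gene that also counts exons outside the deleted part. All 10 listed nephron progenitor markers lay over the floor. The 2 with the highest WT density were Six2, at 482 in WT and 509 RPKM in KO, and Sall1, at 184 and 211. Of the 10, 5 were lower and 5 higher in KO, with differences from -0.53 to 0.35. The table holds only genes that passed the authors' own corrected p-value of 0.05 between these 2 libraries, so members with nearly equal values are under-represented. Intervals of ratios given below cover counting error, and all 52 members with an interval had one that excludes 1. That filter favours such intervals, so they are no separate support for a difference.

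The promoters of the members were looked at first, because p53 is a transcription factor. RefSeq windows of 300 bases, from 250 before to 50 after a transcription start on GRCm38.p6, matched 45 of the 53 members. They were searched for the p53 half-site, a palindromic motif of 10 letters known by that name, so that a match on one strand is a match on the other. It was in the windows of 3 of the 45 members, or 6.67%, against 9.55% of 27025 genes. Robo1 had 2 matches, at positions -213 and -109 counted from its start, Efna4 had AGACAAGTTT at -89 and Ntn3 had AGGCTTGCTC at -51. No member had 2 matches within 13 bases of each other, the spacing of a full site, which 20 of all genes had. The Robo1 window (chr16:72662899-72663198, plus strand) is printed as the only one with 2 matches. The window of Sema3a (chr5:13396534-13396833, plus strand), one of the genes with the largest difference below, is printed as an example without a match. Both are on GRCm38.p6, and capitals mark the half-sites.
Robo1: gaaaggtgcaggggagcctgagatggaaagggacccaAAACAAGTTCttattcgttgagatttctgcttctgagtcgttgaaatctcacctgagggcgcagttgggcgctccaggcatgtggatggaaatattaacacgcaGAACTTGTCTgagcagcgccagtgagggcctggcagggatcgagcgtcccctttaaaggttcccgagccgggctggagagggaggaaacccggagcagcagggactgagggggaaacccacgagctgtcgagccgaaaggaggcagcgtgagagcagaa
Sema3a: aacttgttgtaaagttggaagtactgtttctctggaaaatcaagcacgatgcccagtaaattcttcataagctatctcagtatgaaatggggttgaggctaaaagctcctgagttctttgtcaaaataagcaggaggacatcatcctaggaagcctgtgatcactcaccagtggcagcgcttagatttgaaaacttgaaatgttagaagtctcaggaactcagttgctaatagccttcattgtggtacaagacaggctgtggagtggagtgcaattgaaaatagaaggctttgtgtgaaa
Windows for Dcc, Efnb3, Ntn1, Plxna1, Plxna4, Sema3b, Sema3f and Sema6a were not matched. The presence or absence of these letters says nothing of binding in these cells.

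Most members differed little between the libraries. Of the 53, 2 were at least 1.5-fold lower in KO, the netrin Ntn1 and the semaphorin Sema3a, and 0 were at least 1.5-fold higher. Among all 10617 listed genes, 5.49% were lower and 0.951% higher by that size, so the 2 members, 3.77%, were near the background. The median difference of the members was -0.14, against -0.11 for all listed genes, and the middle of the members ran from -0.33 at the 25th percentile to 0.05 at the 75th. By sign alone 38 members were lower and 15 higher in KO, so 71.7% were lower and 28.3% higher, against 63.9% and 36.1% of all listed genes. Over the floor lay 22 members, 12 lower and 10 higher, or 54.5% and 45.5%, against 55.8% and 44.2% of all genes over the floor. Of these 22, Ntn1 alone was 1.5-fold lower and 0 were higher by that size, where 2.41% and 0.659% of all genes over the floor were. The other 31 members lay under it. With both libraries centred on the median of all listed genes, 31 members were lower and 22 higher, where by construction 50% of all listed genes lie on each side.

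**Figure D1:**
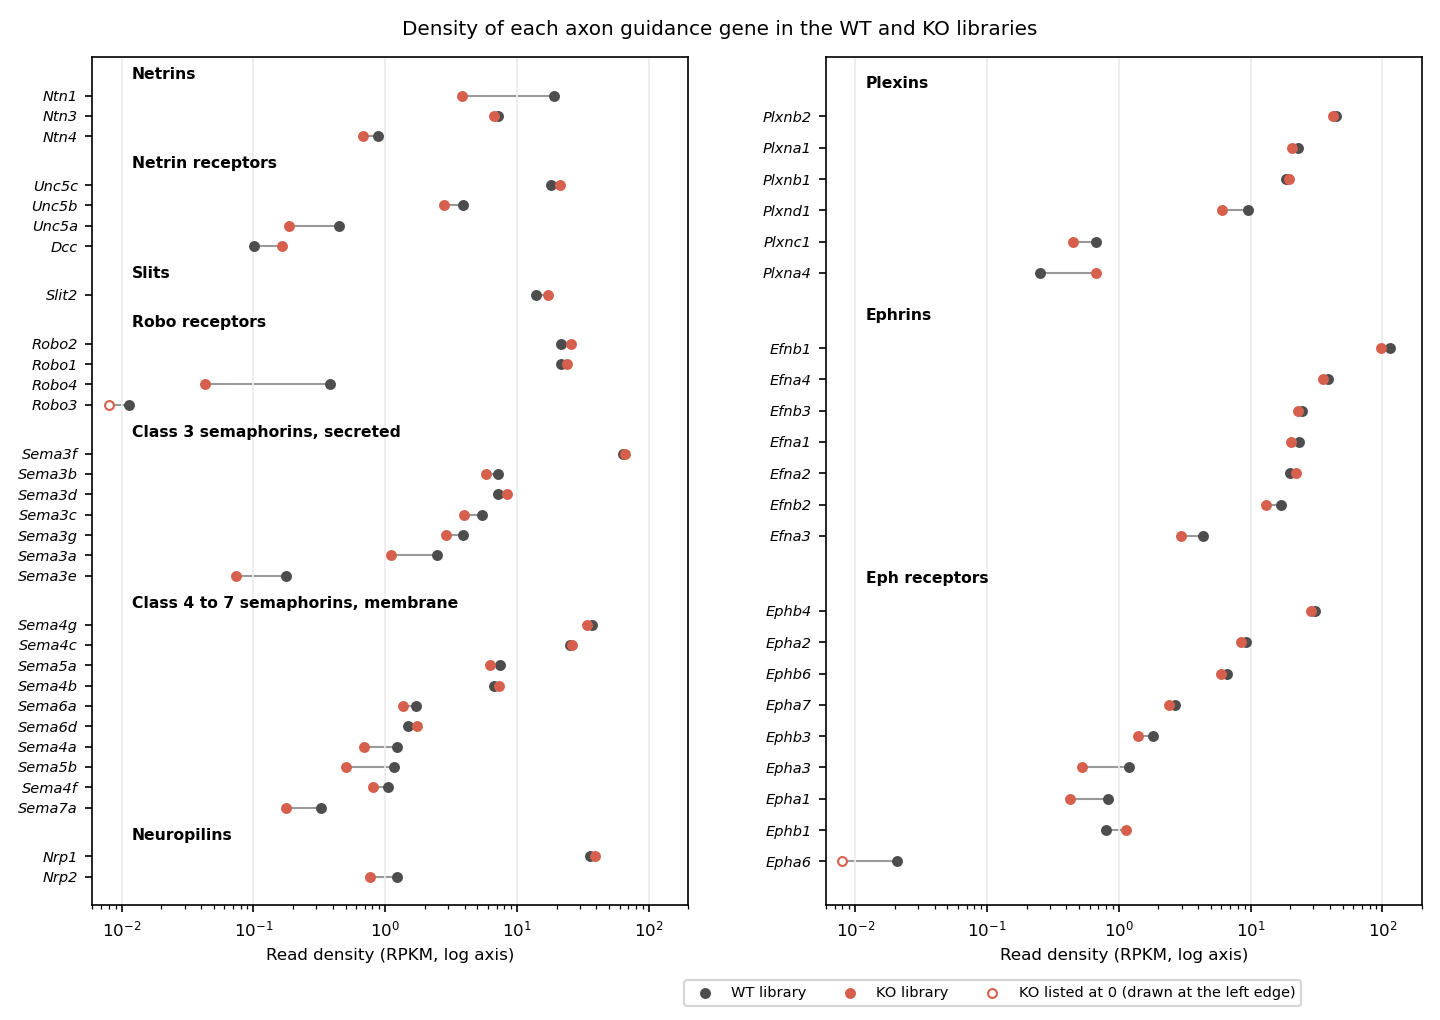
Read density in RPKM (log axis) of each of the 53 genes in the WT library (grey) and the KO library (red), grouped by family and sorted by WT density. Open circles at the left edge are the 2 genes listed at 0 in KO, and the longest line above 1 RPKM belongs to Ntn1, from 18.96 to 3.84 RPKM.

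**Figure D2:**
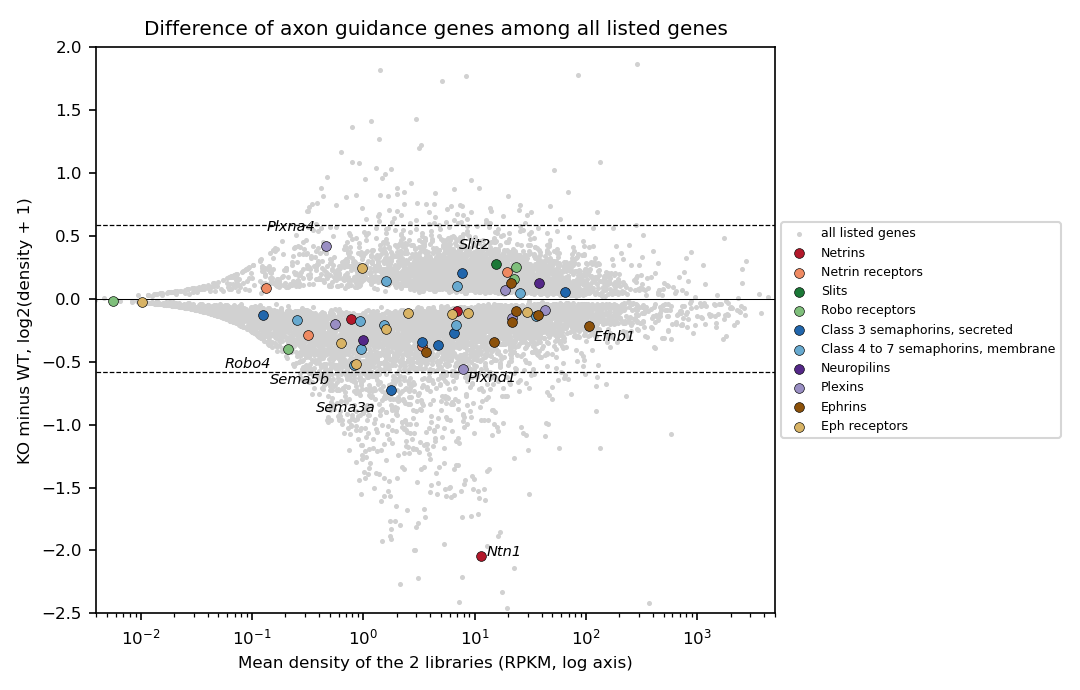
Difference KO minus WT on log2(density + 1) against the mean density of the 2 libraries (RPKM, log axis), for all listed genes (light grey) and the members (coloured by family), with dashed lines at 1.5-fold. Outside the vertical range lie 16 genes and left of the horizontal range 2, none of them members. Genes that did not pass the authors' limit would lie in the band without points around 0, and Ntn1 is the member farthest from 0, at -2.04.

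The largest difference of any member on log2(density + 1) was in a netrin. Ntn1, netrin-1, a secreted cue that also keeps cells with netrin receptors alive and that renal stromal cells are known to make, was at 18.96 in WT and 3.84 RPKM in KO. The KO to WT ratio was 0.202, with an exact 95% interval of 0.193 to 0.212 that covers counting error alone, or 4.94-fold lower, and a difference of -2.04 that stayed at -1.99 after correction for GC content and gene length. Ntn1 (ENSMUSG00000020902) lies on chromosome 11 from 68209364 to 68400823 on the minus strand of GRCm38. The other netrins were nearer to each other in the 2 libraries. Ntn3 was at 7.18 in WT and 6.65 RPKM in KO, a value that reads of the overlapping gene Tbc1d24 can add to, and Ntn4, a netrin of basement membranes, at 0.879 and 0.677. The 3 netrins summed to 27.0 in WT and 11.2 RPKM in KO.

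The listed netrin receptors were split, 2 lower and 2 higher in KO as deposited, where 63.9% of all listed genes were lower. After correction for GC content and length 3 of the 4 were lower, against 75.9% of all listed genes with a model. Unc5c, a repulsive netrin receptor and the most abundant of the 4 listed, was at 18.02 in WT and 21.0 RPKM in KO. Its difference of 0.21 became 0.004 after correction for GC content and length, where the median of all listed genes was -0.11. Unc5b, which is known in human cells as a p53 target and as a receptor of vessels, was at 3.93 and 2.80 RPKM. Unc5a was low in both libraries, at 0.450 and 0.188 RPKM, a ratio of 0.417 (interval 0.310 to 0.557) on an estimated 171 and 67 reads. Dcc, the attractive netrin receptor of neurons, was lower still, at 0.101 in WT and 0.165 RPKM in KO, with an interval of the ratio from 1.295 to 2.076. Together these 4 summed to 22.5 in WT and 24.2 RPKM in KO.

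Slit2 and its main receptors were slightly higher in KO as deposited. After correction for GC content and gene length Robo2 lay just below 0, where the median of all listed genes was -0.11. Slit2, the only listed Slit (ENSMUSG00000031558, chromosome 5, 47983155 to 48306282, plus strand), was at 14.0 in WT and 17.1 RPKM in KO, which gives a ratio of 1.22 (interval 1.20 to 1.24). Robo2 was at 21.6 and 25.8 RPKM, a ratio of 1.20, and Robo1, its neighbour on chromosome 16 at a distance of 846 kb, at 21.5 and 24.1, a ratio of 1.121. None of these 3 reached 1.5-fold. After correction for GC content and length their differences of 0.27, 0.25 and 0.16 became 0.06, -0.01 and 0.10.

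The other Robo receptors were scarce. Robo4, known as the Robo of endothelial cells, was at 0.379 in WT and 0.0426 RPKM in KO, an estimated 183 and 19 reads and a ratio of 0.113 (interval 0.0651 to 0.178), the lowest ratio of the 51 members above 0 in both libraries. Its difference on log2(density + 1) was only -0.40, because both values lie far below 1 RPKM. Robo3, a Robo of commissural neurons, was at 0.0113 RPKM in WT and listed at 0 in KO. Its fold in the authors' deposited table corresponds to 7 reads in WT. Its density gives the same number, but the depth used for that was itself derived from such folds.

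Genes known as targets of the Slit and Robo pathway or as its partners in kidney outgrowth went in both directions as deposited. Of 7 listed, 4 had a higher and 3 a lower density in KO, none by 1.5-fold, with a median difference of 0.15. Among all listed genes 63.9% were lower. When centred, 6 of the 7 were higher and 1 lower, with a median of 0.26, where 50% of all listed genes lie on each side. After correction for GC content and length 5 were higher and 2 lower, against 24.1% and 75.9% of all listed genes with a model. Eya1, a regulator upstream of Gdnf, was at 66.8 in WT and 84.1 RPKM in KO, Spry1, an inhibitor of receptor tyrosine kinase signals, at 66.6 and 79.5, and Pax2, a transcription factor of the nephron lineage, at 61.7 and 71.98. Gdnf itself, named after its value was seen, was at 64.1 in WT and 59.5 RPKM in KO.

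Among the secreted class 3 semaphorins, 5 of 7 were lower in KO, against 63.9% of all listed genes. Their median was -0.27, and 1 of the 7 was past 1.5-fold. This was Sema3a, which signals through Nrp1 and is known in kidney for restraining ureteric bud branching (ENSMUSG00000028883, chromosome 5, 13396784 to 13602565, plus strand). It was at 2.47 in WT and 1.099 RPKM in KO, an estimated 3121 and 1305 reads, with a ratio of 0.446 (interval 0.417 to 0.475). The difference of -0.72 became -1.03 after correction for GC content and length. The abundant member of the class did not show this. Sema3f, a ligand for Nrp2, was at 63.7 in WT and 66.1 RPKM in KO and made up most of the class sum of 90.04 in WT and 88.3 RPKM in KO.

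The other class 3 genes went in both directions. Sema3d was at 7.16 in WT and 8.40 RPKM in KO, higher as deposited by 0.20. After the correction it lay at -0.10, near the median of -0.11 of all listed genes. Sema3b, which lies 72.3 kb from Sema3f on chromosome 9 and is a known p53 target in human cells, was at 7.22 and 5.81 RPKM. Sema3c, a cue of heart and vessel development, was at 5.42 and 3.98, and its difference of -0.36 became -0.63 after the correction. Sema3g was at 3.93 and 2.88 RPKM, and Sema3e, the ligand that binds Plxnd1 directly, at 0.178 and 0.0739.

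Of the 10 membrane-bound semaphorins of classes 4 to 7, 7 were lower and 3 higher in KO. Among all listed genes 63.9% were lower and 36.1% higher. The median of the 10 semaphorins was -0.17, and none was past 1.5-fold on log2(density + 1). Both that lay over the floor belong to class 4, whose members signal through B-type plexins. Sema4g was at 37.2 in WT and 33.7 RPKM in KO, and Sema4c, a ligand of Plxnb2, at 25.4 and 26.3. The next in abundance were Sema5a, at 7.43 and 6.28 RPKM, and Sema4b, at 6.69 and 7.25. Relative differences were larger among the scarce ones. Sema5b was at 1.16 in WT and 0.501 RPKM in KO, which gives a ratio of 0.431 (interval 0.376 to 0.493), Sema4a at 1.22 and 0.685, and Sema7a, which is tied to the membrane by a lipid anchor, at 0.326 and 0.177. Sema6a, Sema4f and Sema6d lay between 0.809 and 1.74 RPKM in both libraries, with ratios from 0.777 to 1.17.

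The semaphorin receptors over the floor were nearly level, apart from Plxnd1. Nrp1, a co-receptor of Sema3a and of vascular endothelial growth factor, was at 36.0 in WT and 39.3 RPKM in KO, higher by 0.12 as deposited. After correction for GC content and length it lay at -0.14, near the median of -0.11 of all listed genes. Nrp2 was at 1.22 and 0.772 RPKM, a ratio of 0.633 (interval 0.578 to 0.691). Plxnb2, a receptor of class 4 semaphorins with a known part in ureteric bud branching, was the most abundant plexin at 44.5 and 41.9 RPKM. Plxna1, a partner of neuropilins, was at 23.1 and 20.7 RPKM and Plxnb1 at 18.5 and 19.4. Plxnb2 lay at -0.09 as deposited and at 0.03 when the libraries were centred.

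Plxnd1, a plexin known from endothelium, was at 9.50 in WT and 6.12 RPKM in KO, which gives a ratio of 0.644 (interval 0.619 to 0.671). Its difference of -0.56 lay just inside the size rule, which is 0.58 on the log2 scale, and its density ratio lay just past 1.5-fold. Plxnc1, the receptor of Sema7a, was at 0.671 and 0.453 RPKM. Plxna4, a receptor of class 3 and class 6 semaphorins in neurons, was the member with the highest ratio, at 0.253 in WT and 0.671 RPKM in KO. Its ratio was 2.65 (interval 2.33 to 3.02) on an estimated 326 and 811 reads, while its difference on log2(density + 1) was 0.42.

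The 7 listed ephrins had a sum of 242 in WT and 215 RPKM in KO. Of the 7, 6 were lower in KO by small amounts and 5 when centred, against 63.9% and 50% of all listed genes. Efnb1, a transmembrane ephrin encoded on the X chromosome, was the highest member of all at 115 in WT and 98.5 RPKM in KO, which gives a ratio of 0.859 (interval 0.846 to 0.872). Efnb2, which marks arteries and is found in other kidney cells too, was at 17.0 and 13.2 RPKM, a ratio of 0.776. Efnb3 was at 24.4 and 22.8 RPKM, lower as deposited and higher by 0.02 when centred. The other 4 listed ephrins are anchored to the membrane by a lipid. Efna4 was at 38.6 and 35.2 RPKM, Efna1 at 23.3 and 20.4, and Efna2, the only ephrin higher in KO, at 20.1 and 22.01. Efna3 lies between Efna1 and Efna4 on chromosome 3, within 32.8 kb of the former and 10.4 kb of the latter, and was at 4.34 and 2.97 RPKM, a difference of -0.43.

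The 9 listed Eph receptors, of 14 in the annotation, had a sum of 54.0 in WT and 48.9 RPKM in KO, and Ephb4 alone made up most of it. Ephb4, the receptor of Efnb2 in veins, was at 30.9 in WT and 28.7 RPKM in KO, and Epha2, an epithelial receptor known in human cells as a p53 target, at 9.19 and 8.40. Ephb4 was lower by 0.10 as deposited and higher by 0.01 when centred. Of the 9 receptors, 8 were lower in KO as deposited and 5 when centred, against 63.9% and 50% of all listed genes. None of the 9 was past 1.5-fold on log2(density + 1). Ephb6, which lacks kinase activity, was at 6.57 and 5.95 RPKM, and Epha7 at 2.66 and 2.39. Epha3 was at 1.20 in WT and 0.530 RPKM in KO, which gives a ratio of 0.443 (interval 0.393 to 0.499), and Epha1 at 0.823 and 0.429, a value that the overlapping gene Zyx can add reads to. Ephb1 was the one Eph receptor higher in KO, at 0.804 and 1.14 RPKM. Ephb3 was at 1.82 and 1.39 RPKM, and Epha6 was at 0.0207 RPKM in WT, 10 reads by its fold in the authors' deposited table, and listed at 0 in KO.

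Without the pseudocount, the picture over scarce genes was wider but again near the background. Of 51 members above 0 in both libraries, 12 were at least 1.5-fold lower in KO and 2 at least 1.5-fold higher by the density ratio, 23.5% and 3.92%. Among the 10372 listed genes above 0 in both, the shares were 21.5% and 3.76%. The 12 were Robo4, Ntn1, Sema3e, Unc5a, Sema5b, Epha3, Sema3a, Epha1, Sema7a, Sema4a, Nrp2 and Plxnd1, and the 2 were Plxna4 and Dcc. For 9 of the 12 and for Plxna4 the whole counting interval lay past 1.5-fold. Apart from Ntn1 and Plxnd1, these 14 genes were under the floor, and they were named after their values were seen.

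**Figure D3:**
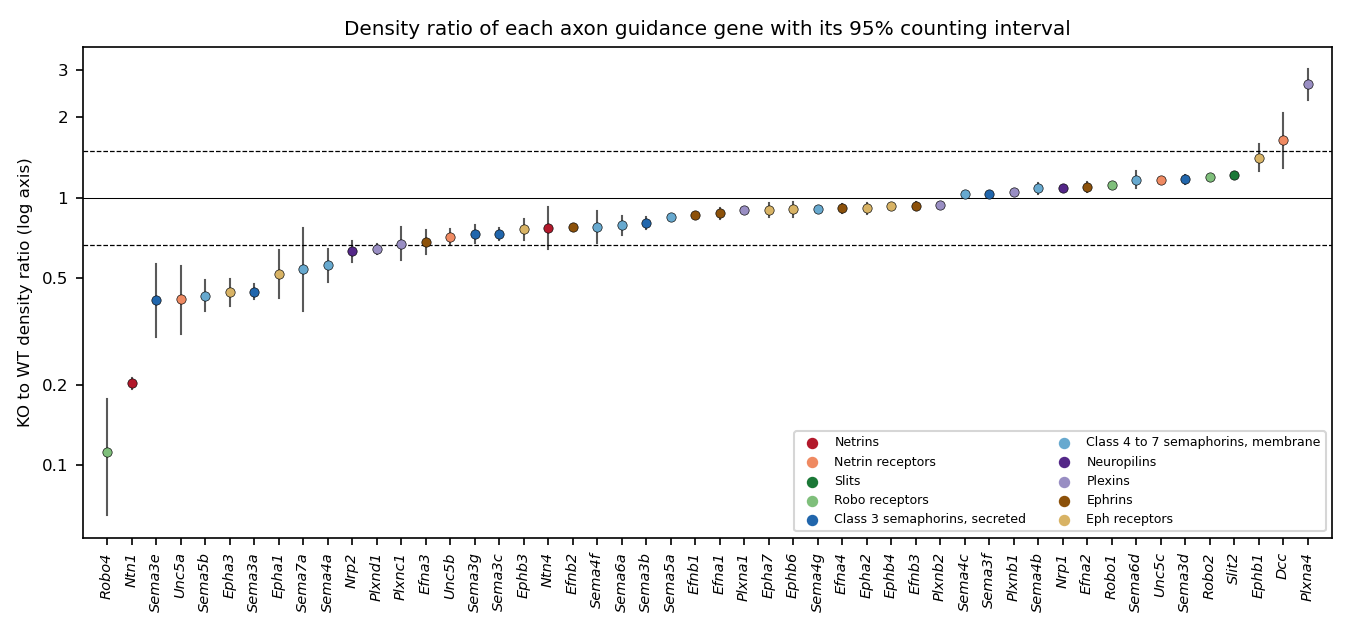
KO to WT density ratio (log axis) of the 50 members above 0 in both libraries that have a gene model, sorted by ratio and coloured by family, with the 95% exact interval of the estimated reads as a bar and dashed lines at 1.5-fold. Bars cover counting error only. Robo4 and Ntn1 stand lowest, at 0.113 and 0.202, and Plxna4 highest, at 2.65.

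Most listed markers of cells other than progenitors, which a sort can carry along, were lower in KO. Among all listed genes 63.9% were lower in KO, and 5.49% were lower by at least 1.5-fold. Of the renal stroma markers 12 of 13 were lower in KO, 11 by at least 1.5-fold, and their summed density was 308 in WT and 163 RPKM in KO. The highest of them in WT were Tcf21 (79.5 and 51.9 RPKM) and Foxd1 (63.7 and 43.1 RPKM), and the differences in the list ran from -2.14 to 0.32. All 11 endothelial markers were lower, with a sum of 8.99 in WT and 2.82 RPKM in KO, Cdh5 at 1.82 and 0.313 RPKM and Eng at 1.21 and 0.407. All 7 listed podocyte markers were lower, 4 of them by at least 1.5-fold, with a median difference of -0.61. Their sum went from 136 RPKM to 96.2. It is mostly Tcf21, which is also counted in the stroma list, and Wt1, which was nearly level (43.4 and 41.2 RPKM), so it says little of the other 5. All 10 ureteric bud markers were lower, from 27.4 RPKM to 14.3, such as the keratin gene Krt8 (5.41 and 1.88 RPKM).

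Leukocyte and erythroid markers were lower as well, all 8 listed of each, against 63.9% of all listed genes. Their sums went from 15.1 RPKM in WT to 2.00 in KO and from 632 to 23.6, with C1qb at 4.25 and 0.644 RPKM, C1qa at 2.71 and 0.382, Hbb-b1 at 237 and 9.69 and Hbb-b2 at 145 and 4.45. Copies of the globin genes are nearly identical, so their single values are uncertain. Of 8 neural markers 3 were listed, and they were split, Elavl4 at 3.08 and 4.17 RPKM and Stmn2 at 1.796 and 0.159. None of the listed markers was at 0 in either library. Nephron progenitor markers were split as deposited, 5 lower and 5 higher, with a median difference of -0.01. When centred, 2 were lower and 8 higher, with a median of 0.10, where 50% of all listed genes lie on each side. In RNA from sorted pools, fewer cells of a type and less RNA per cell cannot be told apart, and the part of these cell types in the differences of the guidance genes was not tested.

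**Figure D4:**
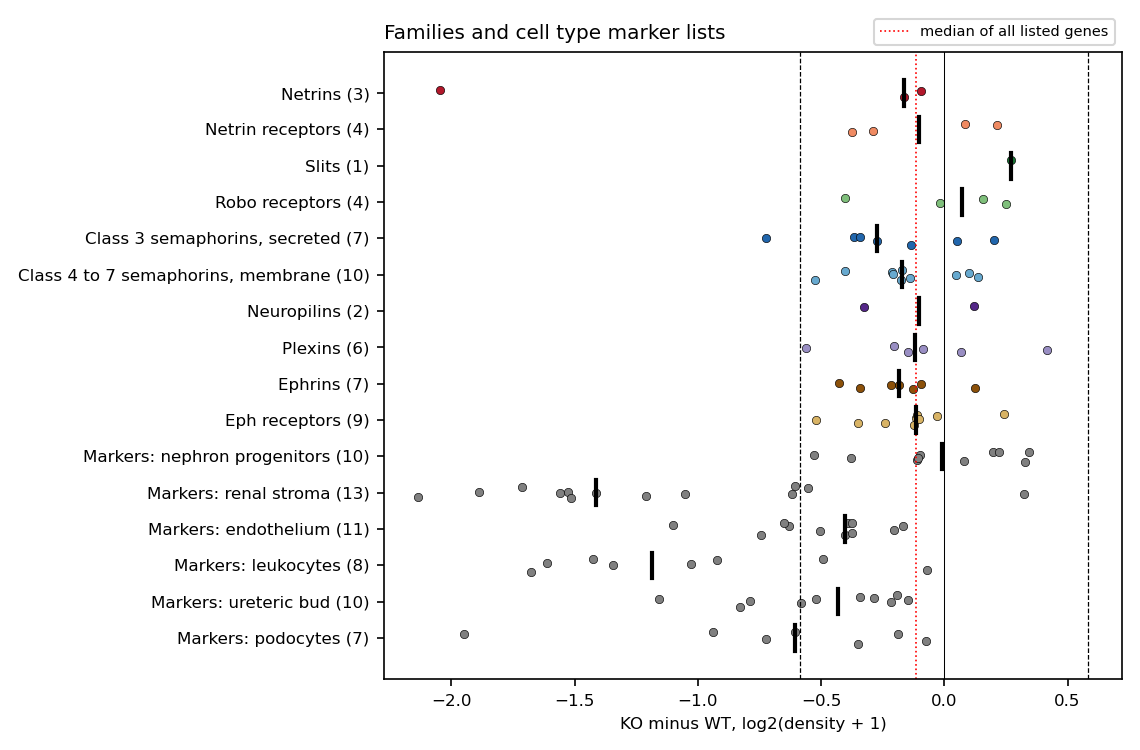
Difference KO minus WT on log2(density + 1) of each gene in the 10 guidance families (coloured) and in 6 cell type marker lists (grey), with the number of listed genes in brackets, black bars at the medians, dashed lines at 1.5-fold and a dotted line at the median of all listed genes, -0.11. All guidance genes but Ntn1 and Sema3a lie within the dashed lines. Of the markers, 11 of 13 stroma, 4 of 11 endothelial and 6 of 8 leukocyte genes lie left of them. So do 3 of 10 ureteric bud and 4 of 7 podocyte genes, and no nephron progenitor gene. The part of these cell types in the guidance genes was not tested.

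The split by sign of the genes that carry guidance signals inside the cell depended on the scaling, as did that of all listed genes. Of 39 listed signal transducers 20 were lower and 19 higher in KO, with a median difference of -0.02, and 1 was at least 1.5-fold lower. Among all listed genes 63.9% were lower and 36.1% higher, with a median of -0.11, and 5.49% were at least 1.5-fold lower. When centred, 12 transducers were lower and 27 higher, where 50% of all listed genes lie on each side. After correction for GC content and length 25 were lower and 13 higher of the 38 with a gene model. The shares of all listed genes with a model were then 75.9% and 24.1%. The 1 transducer past 1.5-fold was Acp1, a small tyrosine phosphatase that acts on Eph receptors, at 27.1 in WT and 6.78 RPKM in KO, a difference of -1.85. Rnd2, a small GTPase, was at 11.7 and 8.40 RPKM, and Pak1, a kinase downstream of Rac and Cdc42, at 6.37 and 8.70. Of 19 listed co-receptors and other cues 12 were lower and 7 higher, none past 1.5-fold, with a median of -0.08. Fzd3, a frizzled receptor needed for axon tracts, was at 8.10 and 11.3 RPKM, the receptor tyrosine kinase gene Met at 8.89 and 11.6, and Boc, a co-receptor for hedgehog and guidance signals, at 14.7 and 11.5.

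Base composition and length, here the summed exons of a gene, differed between the members that were higher and those that were lower. The 15 members higher in KO had a median GC content of 49.5% and a median length of 9785 bases, and the 37 lower ones with a gene model 56.5% and 6258 bases. Across all 10508 listed genes with a model, Spearman's rank correlation between GC content and difference was -0.42, and across 52 members it was -0.20, where genes of the same 2 libraries share depth and library preparation. After correction for GC content and length 41 of the 52 were lower in KO, or 78.8%, against 75.9% of all listed genes, and 11 were higher, or 21.2% against 24.1%. On the corrected scale 4 of the 52, or 7.69%, were at least 1.5-fold lower and 0 higher, against 5.93% and 0.752% of all 10508 listed genes with a model, which is near the background. The 4 were Ntn1, Sema3a, Epha3 and Sema3c. The correction adds back the overall median, so a gene level with others of its GC content and length lies at about -0.11, not 0. Above 0 as deposited and below 0 after the correction were Robo2, Nrp1, Sema3d and Dcc, at -0.01, -0.14, -0.10 and -0.13.

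**Figure D5:**
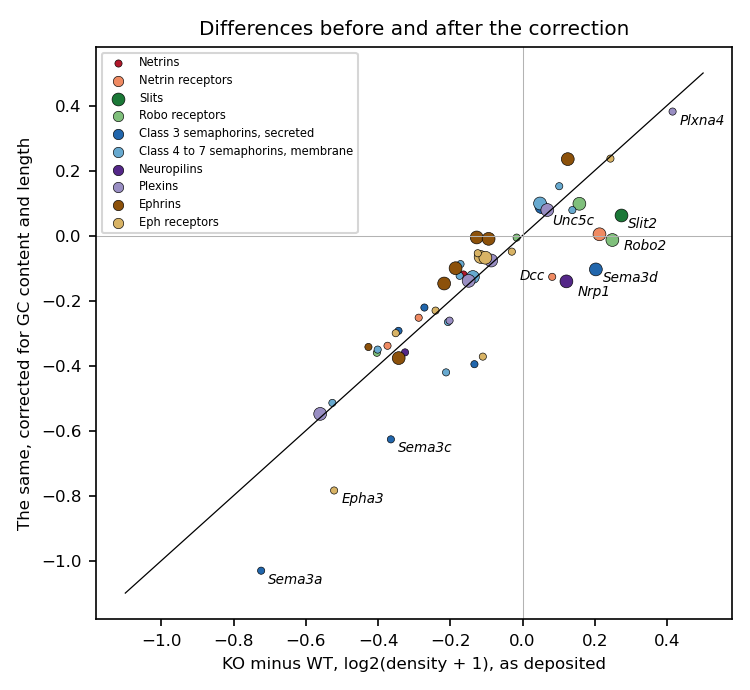
Difference KO minus WT on log2(density + 1) as deposited (horizontal) and after correction for GC content and gene length (vertical) for the members with a gene model except Ntn1, which went from -2.04 to -1.99; large points lie over the floor, small ones under it, and the diagonal marks equal values. Slit2, Robo2, Unc5c, Nrp1 and Sema3d lie below the diagonal, near 0 or under it, and Sema3a moved from -0.72 to -1.03. Genes level with others of their GC content and length lie at about -0.11 on the vertical axis.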

How the data were processed

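Messenger RNA of sorted nephron progenitor cells was sequenced in 1 WT and 1 KO library. CASAVA 1.8, Novoalign 2.08.02 and FastQC and the builds GRCm38 and mm10 are listed per the submitters' processing notes; how reads were counted, whether strand was used and what became of multiply aligned reads is not stated there. The deposited table has, per the file headers, 1 read density per library, RPKM by its values, and a p-value and corrected p-value for KO against WT. The authors also deposited a fold ratio and a signed fold change, a score negative where KO was lower, scaled by 1.04 relative to the densities. Of 171 genes at 0 in KO, 150 had deposited folds in whole steps of a read, within 0.01, as had 70 of 75 at 0 in WT. With union exon lengths of GENCODE vM21 these steps gave the depths, within 0.5% for 101 of 149 genes in WT and 48 of 67 in KO.

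Differences, counts and medians were computed in Python 3.11.15 with scipy 1.17.1, with a pseudocount of 1 and 1 row per symbol. With 1 library per group no test was made. Intervals (Clopper-Pearson, 95%) rest on estimated reads and cover counting error only. The correction for GC content and length subtracted the median of genes in the same of 10 GC and 4 length bins and added back the overall median. Exons of 16 members overlap those of another gene, so unstranded reads could be shared. Scripts were tested on simulated data. Members and lists were chosen with earlier results of these data known. Named were all members over the floor or past 1.5-fold, the most abundant others per family, up to 3 genes per pathway list by difference and 2 per marker list by WT density; further members were named after their values were seen. A marker gene chosen this way is not reported here.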

Additional observations from a re-analysis of the deposited data

How the results depend on the processing

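The comparison rests on 1 library per group, on a table limited to genes past the authors' threshold, and on a size rule that low densities can hardly pass with a pseudocount of 1. The 2 members at least 1.5-fold lower became 9 of 53 with a pseudocount of 0.25, 17% against 13% of all listed genes, and 1 with a pseudocount of 4, 1.89% against 1.70%. They became 4 of 52 when corrected for GC content and length, 7.69% against 5.93%, 1 of 22 over the floor, 4.55% against 2.41%, and 0 of 14 with the floor at the 75th percentile of density, against 1.58%. They became 1 at 2-fold, 1.89% against 1.70%, and 12 of 51 by the density ratio without a pseudocount, 23.5% against 21.5%, an alternative chosen after seeing the data. The count stayed at 2 when centred and with the authors' scaling, 3.77% against 3.85% and 4.96%. The 0 higher members became 1 with a pseudocount of 0.25, 1.89% against 2.36%, and 2 by the density ratio, 3.92% against 3.76%. Centring on the median of all listed genes shifts every difference by 0.11 and took the members' median from -0.14 to -0.023, and the density ratio gave -0.19; it stayed negative in every alternative run. Family medians were set against the medians of their genes' lower and upper counting limits, which is not an interval of the median itself. Of 67 under the alternatives 42 moved beyond these and 8 changed sign. A floor or the correction can also change which genes enter. Of 138 differences of single genes 68 moved beyond their counting interval and 6 changed sign. These were Efnb3, Ephb4 and Plxnb2 when centred and Nrp1, Robo2 and Sema3d after the correction. The netrin median of -0.16 over 3 genes became -1.06 over 2 genes after the correction, where Ntn3 has no gene model, and -2.04 over the floor, where only Ntn1 enters. No paired analysis was possible because each group has 1 library. With about 91200000 and 85600000 reads, depth limits only the scarcest genes, such as Robo3 and Epha6.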
